A study of Mus musculus with 10 samples.

Results

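Olfactory receptor genes of the mouse were taken as a stretch of the genome that T cells are not known to use, and the accessible sites beside them were followed through a study of pyruvate dehydrogenase (PDH) and acetate in Th17 cells. A site belonged to the set when the protein-coding gene body nearest to it on GRCm38, within 50 kb, carried a symbol beginning with Olfr and a number. This held for 52 of the 39657 sites in the authors' table. The assay was ATAC-seq, in which a transposase cuts and tags open DNA, so that the reads at a site show how accessible its chromatin was. Naive CD4+ T cells from mouse spleen and lymph nodes were cultured for 3 days with anti-CD3, anti-CD28, IL-6, TGFβ and anti-IFNγ, which gives Th17 cells, a helper subset named for its interleukin-17. PDH makes acetyl-CoA from pyruvate in the mitochondria, and cells can also make acetyl-CoA from acetate. The groups were untreated cells of PDHfl/fl CD4 Cre+ mice (KO untreated, 3 libraries), untreated cells of PDHfl/fl mice (WT untreated, 3), PDHfl/fl CD4 Cre+ cells cultured with 10 mM sodium acetate (KO acetate, 2) and PDHfl/fl cells cultured with the same acetate (WT acetate, 2). Both genotypes thus carried the floxed alleles, and the KO differed by a Cre that is driven in CD4-expressing T cells. The labels name neither the floxed gene of the complex nor the mice behind each replicate, so p-values measure only the spread between these libraries, and the deletion was not checked here.

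Olfactory receptors are G protein-coupled receptors of the sensory neurons in the nose, each detecting its own range of odorants. They form the largest gene family of the mouse and lie in tandem clusters on many chromosomes. A sensory neuron expresses a single allele of a single receptor gene, while the other clusters of that neuron are packed into heterochromatin. In the nose, a bound receptor acts through the G protein Golf, adenylate cyclase 3 and a cyclic-nucleotide-gated channel. The clusters are regarded as silent in most other tissues, although neither RNA nor histone marks were measured here. For most of the receptors named below no ligand is given, because none is known with certainty.

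Few receptor genes had a site at all. The 52 sites were nearest 32 of the 1110 olfactory receptor genes of the annotation (2.88%), against 12066 of the 20790 other protein-coding genes (58.0%). The vomeronasal receptor genes (Vmn1r and Vmn2r), a second receptor family of the nose, had a nearest site for 10 of 353 genes (2.83%). Of the 32 genes, 19 had 1 site, 7 had 2 sites, 5 had 3 sites (Olfr1393, Olfr221, Olfr175, Olfr530 and Olfr225) and 1, Olfr1358, had 4 sites. When receptor genes under 1 Mb apart were joined into clusters, 50 clusters resulted, of which 20 had a member site and 31 held no site of the table inside their span; those 31 hold 507 receptor genes. The largest cluster, on chromosome 2 from 85330967 to 90401674 with 222 genes over 5.07 Mb, contained 0 sites of the table. Chromosome 7 carried 14 of the 52 sites and chromosome 11 carried 10, whereas chromosomes 2, 6, 9, 17 and X carried 0. The table lists only sites that the authors numbered as differential, and these are taken as selected on the same libraries; accessible sites outside it were not analysed here.

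Most member sites stood outside the receptor genes themselves. In all, 5 overlapped the annotated gene body, 6 lay within 1 kb of a gene end and 41 lay farther out, with a median distance of 5.15 kb to the receptor gene. The nearest gene that was no receptor was much farther away, at a median of 27.6 kb. For 15 sites it lay more than 50 kb off, for 30 between 10 and 50 kb, and for 7 within 10 kb. The sites at Olfr1393, for example, lie 1.71 to 8.35 kb from Mgat1, an enzyme gene of N-glycan synthesis, and the site at Olfr70 lies 1.10 kb from Tmem8b. No member came near the 50 kb limit of the rule, since the farthest, at Olfr1389, was 24.1 kb from its gene. A further 7 sites of the table had a receptor as nearest gene beyond 50 kb, and the closest of these, 52.1 kb from Olfr1320, had a log2 difference (KO minus WT, untreated) of 1.04. All sites but 1 were 201 bp wide, and the exception, in Olfr1393, was 268 bp.

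Of the 32 genes, 31 had a promoter in the RefSeq table (GRCm38.p6), which gives 250 bases before to 50 after the gene start. Promoter here means only this stretch around the annotated gene start, and where transcription begins was not measured. Only 3 of these promoters lay within 1 kb of a member site. They are printed here because they are the annotated receptor starts closest to the measured signal, each 5′ to 3′ on the strand of its gene. At Olfr530 and Olfr1385 the last 50 bases open with the letters of a start codon, ATG. The Olfr175 promoter (chr16:58826712-58827011, minus strand) overlaps the site chr16:58827000-58827200 by 12 bases, which are in capitals. The Olfr530 promoter (chr7:140373559-140373858, minus strand) ends 560 bases from the site chr7:140374419-140374619. The Olfr1385 promoter (chr11:49494285-49494584, plus strand) begins 485 bases from the site chr11:49493599-49493799, and in neither of these are bases in capitals.
Olfr175: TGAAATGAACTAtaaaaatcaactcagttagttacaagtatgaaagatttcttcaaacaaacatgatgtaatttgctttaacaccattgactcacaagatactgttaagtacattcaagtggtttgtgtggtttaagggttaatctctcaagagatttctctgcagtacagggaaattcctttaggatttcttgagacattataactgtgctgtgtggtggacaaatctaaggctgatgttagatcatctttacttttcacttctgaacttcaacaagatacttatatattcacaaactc
Olfr530: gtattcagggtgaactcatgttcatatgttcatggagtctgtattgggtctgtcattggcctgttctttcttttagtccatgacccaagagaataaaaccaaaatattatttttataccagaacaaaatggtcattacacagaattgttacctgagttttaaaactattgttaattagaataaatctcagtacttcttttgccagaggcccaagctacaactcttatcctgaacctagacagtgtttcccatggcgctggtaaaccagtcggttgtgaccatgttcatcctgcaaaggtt
Olfr1385: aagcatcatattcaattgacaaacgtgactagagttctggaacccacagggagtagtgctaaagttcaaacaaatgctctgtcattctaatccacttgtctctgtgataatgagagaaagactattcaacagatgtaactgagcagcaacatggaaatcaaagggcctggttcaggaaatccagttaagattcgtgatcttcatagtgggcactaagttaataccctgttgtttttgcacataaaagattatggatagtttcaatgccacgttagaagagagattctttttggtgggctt
Letters of 4 motifs were searched on both strands. AP-1 (TGANTCA), the motif of factors induced by T cell activation, was found in 3.23% of the 31 member promoters, in 13.5% of 948 olfactory receptor promoters and in 7.81% of all 32851 promoters of the table. RUNX (TGTGGT), a motif of T cell regulators, was found in 22.6%, 20.8% and 16.8% of the same sets. ETS (AGGAAGT) was found in 9.68%, 5.17% and 9.35%, and EBF (TCCCNNGGG), the motif of factors that act in both olfactory neurons and B cells, in 3.23%, 2.53% and 6.56%. The Olfr175 promoter held AP-1 and RUNX letters, and the Olfr530 and Olfr1385 promoters held none of the 4 motifs. A match describes the letters only.

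The values are used as the authors deposited them and are called signal below. They were whole multiples of a step per library and were read as reads per site divided by 1 factor per library. Read numbers were inferred by dividing the signal by that step. By this reading the libraries held 3500172 to 13356560 reads in sites. A member site held 3 to 1149 reads in a library, with a median of 75, and 9 members had under 10 reads in some library. The column names of KO untreated 1 to 3 and of WT untreated 1 and 2 begin with ATAC1, those of WT untreated 4 and all 4 acetate libraries with ATAC2. Loci that mark the labelled cells had sites for 6 of 6 genes (Il17a, Il17f, Il23r, Ccr6, Cd3e and Cd4), whereas the olfactory neuron markers had sites for 3 of 5 (Gnal, Adcy3 and Rtp1) and none at Omp or Cnga2. The table holds sites taken as differential, so a site in it does not by itself show which cells were present. The sites of Cd4 had log2 differences (KO minus WT, untreated) from -1.98 to 4.72. No site of the table was nearest Cd8a or Cd8b1, and 1 of 3 B cell, 2 of 4 myeloid and 2 of 3 NK and innate lymphoid marker genes had any. Bulk libraries cannot tell fewer cells with an open site from a site that is less open in every cell.

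Sites beside receptor genes were faint but measurable. Their median signal over the 10 libraries was 75.5, against 146 for all sites, and the site means ran from 20.5 at Olfr175 (chr16:58830274-58830474) to 735 at Olfr530 (chr7:140374419-140374619). When all sites were ranked by level and cut into 5 classes of equal size, the lowest to the highest class held 20, 11, 12, 5 and 4 of the 52. Only 14 members had a mean signal above the median of the table, among them the sites at Olfr530, Olfr1393 and Olfr750.

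How these sites compared between the groups as a whole depended on the measure. The 52 sites took 0.0930%, 0.0884% and 0.0955% of all nuclear reads in sites in the KO untreated libraries, against 0.0743%, 0.0793% and 0.0639% in the WT untreated libraries. The share was higher in each KO untreated library than in each WT untreated library, at 0.0923 ± 0.00362% and 0.0725 ± 0.00787% (SD, n = 3 each), a ratio of 1.27. Other faint or gene-poor sites also took larger shares in KO untreated libraries. The faintest of the 5 level classes took 4.71 ± 0.234% in KO untreated and 3.86 ± 0.473% in WT untreated libraries, and the sites beside vomeronasal receptor genes took 0.0144 ± 0.000232% in KO untreated and 0.0127 ± 0.000445% in WT untreated libraries, without overlap in either set. The sites with no protein-coding gene within 50 kb took 6.11 ± 0.0943% in KO untreated and 5.66 ± 0.579% in WT untreated libraries, and these overlapped (SD, n = 3 each). The sets were not compared by a test. With acetate the shares of the 52 sites were 0.0732% and 0.0708% in KO libraries, against 0.0700% and 0.0777% in WT libraries, a ratio of 0.975, and the 2 groups overlapped. On the deposited signal the sum over the 52 sites without acetate was lower in KO. It was 5721 ± 820 in KO untreated libraries and 7433 ± 825 in WT untreated libraries (SD, n = 3 each), a ratio of 0.770. The sum over all nuclear sites was lower in KO too, at 6.19e+06 ± 7.24e+05 and 1.03e+07 ± 1.15e+06 (SD, n = 3 each). A share sets the 52 sites against this total, and the summed signal does not. With acetate the summed signal was 6441 ± 622 in KO libraries and 7391 ± 191 in WT libraries (SD, n = 2 each), a ratio of 0.872.

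**Figure D1:**
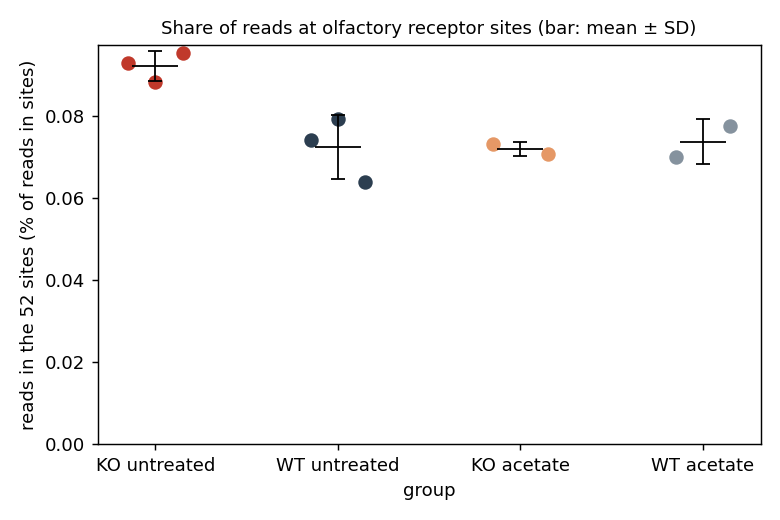
Share of each library's nuclear reads in sites that fell in the 52 olfactory receptor sites (vertical axis, %), by group; points are libraries and bars give the mean ± SD. The 3 KO untreated libraries (0.0884 to 0.0955%) lie above the 3 WT untreated libraries (0.0639 to 0.0793%). On the deposited signal the KO untreated sum is the lower one, as it is over all sites.

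The share differed most at the members far from genes of other kinds. The 15 sites more than 50 kb from such a gene took 0.0341%, 0.0336% and 0.0357% of reads in the KO untreated libraries, against 0.0171%, 0.0200% and 0.0147% in the WT untreated libraries. The 30 sites between 10 and 50 kb took 0.0416%, 0.0380% and 0.0422% in the KO untreated libraries. In the WT untreated libraries they took 0.0404%, 0.0420% and 0.0308%, and these values overlapped. The 7 sites within 10 kb took 0.0174%, 0.0168% and 0.0177% in the KO untreated libraries, against 0.0169%, 0.0173% and 0.0184% in the WT untreated libraries, and these values overlapped. The 15 remote sites were the faintest of these classes, and 10 of them were called higher in KO on the same untreated libraries (below). With acetate the 15 remote sites took 0.0173% and 0.0162% in KO libraries, against 0.0157% and 0.0177% in WT libraries.

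In untreated cells, accessibility beside receptor genes moved in both directions. With limma on the deposited scale, 17 of the 52 sites were called higher and 34 lower in KO than in WT at an adjusted p under 0.05, and 1, at Olfr266, was not called; with each of 3 other scalings between libraries the same 17 sites were called higher and 0 were called lower. Of all sites of the table, 9.07% were called higher and 89.6% lower, so that 32.7% of the members stood on the higher side; under the 3 other scalings (median-of-ratios factors, equal total signal and cyclic loess) 9.63%, 9.42% and 9.35% of all sites were called higher and 3.34%, 5.00% and 2.41% lower. The median log2 difference (KO minus WT) was -0.72 over the members and -0.84 over all sites, and changes are therefore also given relative to the median of all sites. Relative to it, the 17 higher sites stood 1.52 to 3.43 above, and the 34 lower sites ran from 0.74 below to 0.35 above, with 21 below and 13 above. No member lay between -0.39 and 0.68 on the deposited scale. The sites of the table were taken as selected for differences on these same libraries. The gap, the number of calls and the small adjusted p-values here and below cannot be told apart from that selection. Among the ATAC1 libraries alone, 17 sites were called higher and 33 lower, and the share over all sites in that fit is not given here. The library values of KO and WT did not overlap at 15 sites with KO above and at 30 with KO below, against 8.61% and 80.9% of all sites, and they overlapped at 7.

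**Figure D2:**
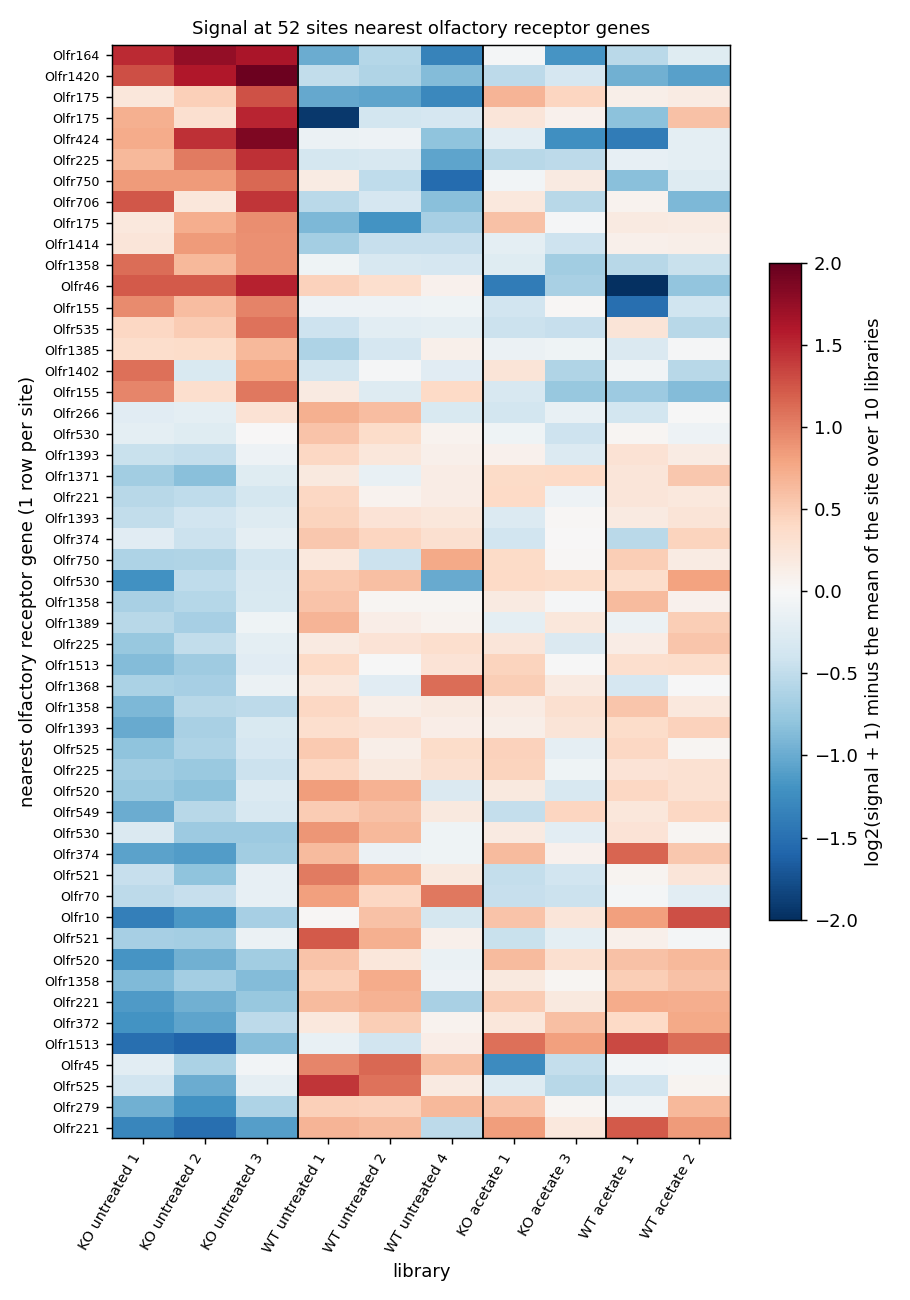
Signal at the 52 olfactory receptor sites (1 row per site, labelled by the nearest receptor gene) in the 10 libraries, as log2(signal + 1) minus the mean of that site over the 10 libraries. The 17 sites called higher in KO untreated cells form a block of high values in the 3 KO untreated columns; the 34 sites called lower on this scale were called in 0 cases under the 3 other scalings.

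The strongest rise was beside Olfr164. Its site (chr16:19263276-19263476, 22.3 kb from the gene, with Hira as the nearest gene of another kind 293 kb away) had a signal of 53.7, 64.4 and 59.1 in KO untreated libraries, against 8.74, 12.1 and 6.63 in WT untreated libraries. All 3 KO untreated values lay above every WT untreated value, a log2 difference of 2.60 ± 0.41 (SE) or 6.05-fold on the log2(signal + 1) scale, with a limma adjusted p of 7.65e-08. With acetate the same site had 17.9 and 7.54 in KO libraries and 12.3 and 15.4 in WT libraries, so that the 2 acetate groups overlapped. Beside Olfr1420 (chr19:11892146-11892346, 3.68 kb from the gene and 20.1 kb from Patl1) the signal was 62.0, 77.5 and 99.3 in KO untreated libraries, against 17.5, 16.1 and 13.3 in WT untreated libraries, a difference of 2.26 ± 0.37 (adjusted p 1.43e-07). Here too the groups did not overlap, and the acetate libraries were low in both genotypes, at 17.1 and 19.6 in KO and 12.3 and 11.2 in WT.

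All 3 sites of Olfr175 rose in KO untreated cells. They lie in a cluster whose nearest gene of another kind, Cldnd1, is 87.4 to 96.0 kb away. The site that overlaps the promoter printed above (chr16:58827000-58827200) had 151, 217 and 248 in KO untreated libraries, against 69.9, 56.3 and 81.8 in WT untreated libraries, a log2 difference of 1.54 ± 0.23 (adjusted p 1.61e-08). It is the brightest of the 3, and its groups were well apart. A second site (chr16:58821647-58821847) had 43.3, 51.4 and 89.9 in KO untreated libraries, against 17.5, 17.1 and 14.4 in WT untreated libraries, a difference of 1.79 ± 0.32 (adjusted p 1.49e-06). The faintest (chr16:58830274-58830474) had 28.5, 21.5 and 50.8 in KO untreated libraries, against 3.75, 13.1 and 13.3 in WT untreated libraries, a difference of 1.73 ± 0.43 (adjusted p 0.000245).

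Rises of about the same size were measured beside 4 more receptors. The signal beside Olfr424 (chr1:174141542-174141742) was 43.9, 72.9 and 96.9 in KO untreated libraries, against 23.7, 24.1 and 14.4 in WT untreated libraries, a log2 difference of 1.70 ± 0.37. Beside Olfr225 (chr11:59617113-59617313) it was 38.4, 50.4 and 68.6 in KO untreated libraries, against 18.7, 19.1 and 11.1 in WT untreated libraries, a difference of 1.63 ± 0.37. Beside Olfr750 (chr14:51079290-51079490) it was 91.6, 91.5 and 112 in KO untreated libraries, against 56.2, 35.2 and 16.6 in WT untreated libraries, a difference of 1.58 ± 0.30. Beside Olfr706 (chr7:106882127-106882327) it was 49.9, 24.3 and 56.8 in KO untreated libraries, against 13.7, 16.1 and 11.1 in WT untreated libraries, a difference of 1.54 ± 0.40. The adjusted p-values were 4.10e-05, 7.35e-05, 4.62e-06 and 0.000333 in this order of genes, and no library of KO fell into the range of WT at any of them.

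The other called rises were smaller. The site beside Olfr1414 (chr1:92537047-92537247), the only riser with a mean signal above the median of the table, had 283, 433 and 450.5 in KO untreated libraries, against 149, 174 and 174 in WT untreated libraries, a log2 difference of 1.20 ± 0.21 (adjusted p 1.08e-06). The Olfr1358 site farthest from the gene (chr10:78538887-78539087) had 238, 170.0 and 206 in KO untreated libraries, against 102, 86.4 and 86.2 in WT untreated libraries, a difference of 1.14 ± 0.23 (adjusted p 1.63e-05). The site inside the Olfr46 gene body (chr7:140609324-140609524) had 184, 184 and 228 in KO untreated libraries, against 107, 98.5 and 82.9 in WT untreated libraries, a difference of 1.04 ± 0.26 (adjusted p 0.000248). Olfr535 (chr7:140496979-140497179) averaged 147 ± 40.0 in KO untreated libraries and 74.4 ± 6.09 in WT untreated libraries, and Olfr1385 (chr11:49493599-49493799, 0.736 kb from the gene) averaged 162 ± 18.8 and 98.2 ± 25.4. The remaining called rises were at Olfr155, with 51.8 ± 6.93 in KO and 26.3 ± 0.216 in WT at chr4:43848671-43848871 and 101 ± 25.8 in KO and 62.4 ± 14.1 in WT at chr4:43847693-43847893, and at Olfr1402 (chr3:97394851-97395051), with 51.4 ± 23.0 in KO and 28.3 ± 3.63 in WT (SD, n = 3 each). At Olfr1402 and at chr4:43847693-43847893 the library values of the 2 genotypes overlapped. In all the 17 rising sites belonged to 14 genes, with log2 differences of 0.68 to 2.60 and a median of 1.54, and their median mean signal was 42.4.

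The 34 sites called lower were brighter, with a median mean signal of 100.4, and their log2 differences of -0.48 to -1.57 (median -0.98) lost every call under the 3 other scalings, where 23 (median-of-ratios), 26 (equal total signal) and 21 (cyclic loess) of them remained below 0. The largest fall was beside Olfr221 (chr14:52034675-52034875, 0.299 kb from the gene), with 35.6, 30.8 and 41.4 in KO untreated libraries, against 145, 141 and 61.9 in WT untreated libraries, a difference of -1.57 ± 0.25 (adjusted p 2.20e-07), or -0.74 relative to the median of all sites. Beside Olfr279 (chr15:98506312-98506512) the signal was 37.8, 31.8 and 48.5 in KO untreated libraries, against 104, 102 and 117 in WT untreated libraries, a difference of -1.45 ± 0.26 (relative, -0.61). Beside Olfr525 (chr7:140317474-140317674) it was 46.1, 29.9 and 53.2 in KO untreated libraries, against 164, 129.6 and 68.5 in WT untreated libraries, a difference of -1.42 ± 0.28 (relative, -0.58). These 3 sites kept a difference below 0 under all 3 other scalings, without a call. Further falls by the same rule were at Olfr372, with 27.2 ± 7.23 in KO and 62.1 ± 9.28 in WT, at Olfr520 (chr7:99741022-99741222), with 83.0 ± 14.3 in KO and 190.4 ± 45.7 in WT, at Olfr70, with 48.8 ± 6.95 in KO and 111 ± 24.2 in WT, and at Olfr521 (chr7:99785633-99785833), with 136 ± 29.5 in KO and 303 ± 85.4 in WT (SD, n = 3 each). Their differences were -1.18, -1.17, -1.15 and -1.13 on the deposited scale.

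Other called falls lay on chromosomes 7, 8, 11, 13 and 14. On chromosome 7 they included Olfr45, within 0.824 kb of its gene, with 31.3 ± 6.34 in KO untreated and 73.7 ± 14.1 in WT untreated libraries, and Olfr549, with 29.1 ± 6.80 in KO untreated and 60.6 ± 8.64 in WT untreated libraries. On chromosome 11, Olfr10 had 16.3 ± 4.49 in KO untreated and 37.9 ± 13.1 in WT untreated libraries, Olfr1389 had 42.4 ± 9.50 in KO and 71.0 ± 17.5 in WT, and Olfr1371 had 107 ± 24.4 in KO and 168 ± 20.9 in WT. On chromosome 8, the 2 Olfr374 sites had 30.6 ± 5.29 in KO against 68.4 ± 21.8 in WT, and 40.8 ± 3.86 in KO against 67.2 ± 5.25 in WT. On chromosome 14, the 2 Olfr1513 sites had 20.0 ± 6.23 in KO against 46.1 ± 8.61 in WT, and 71.2 ± 17.5 in KO against 125 ± 18.1 in WT (SD, n = 3 each). The Olfr1368 site on chromosome 13 had 40.0, 39.2 and 57.9 in KO untreated libraries, against 72.4, 53.2 and 137 in WT untreated libraries, where WT 4 stood far above the other 2. The member without a call, Olfr266 (chr3:106809083-106809283, 18.9 kb from Cd53), had 139.8, 142 and 199 in KO untreated libraries, against 268, 250.2 and 132 in WT untreated libraries, a difference of -0.39 ± 0.22 (adjusted p 0.0881).

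Calls in each direction were counted by the distance to the nearest gene that is no receptor. Of the 15 sites more than 50 kb from such a gene, 10 were called higher and 5 lower in KO untreated cells, and of the 30 sites between 10 and 50 kb, 7 were higher and 22 lower. Of the 7 sites within 10 kb, 0 were higher and 7 lower. Their median log2 differences were 0.94, -0.91 and -0.71 in that order, and under the other scalings only the falls lost their calls. The sites farther away were also fainter, with a median mean signal of 48.6 beyond 50 kb, 75.5 between 10 and 50 kb and 194 within 10 kb, so distance and level cannot be told apart in these counts. By level, the called sites split as 11 higher and 9 lower in the faintest of the 5 classes, 2 and 9 in the next, 3 and 8 in the middle class, 1 and 4 in the next and 0 and 4 in the brightest. Over all sites of the table the percentage called higher was 26.5, 10.2, 6.03, 2.26 and 0.403 from the faintest to the brightest class. It was 9.07 over all classes together and 22.2 over the sites with no protein-coding gene within 50 kb. For other sites nearer to a gene, percentages by distance were not counted.

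**Figure D3:**
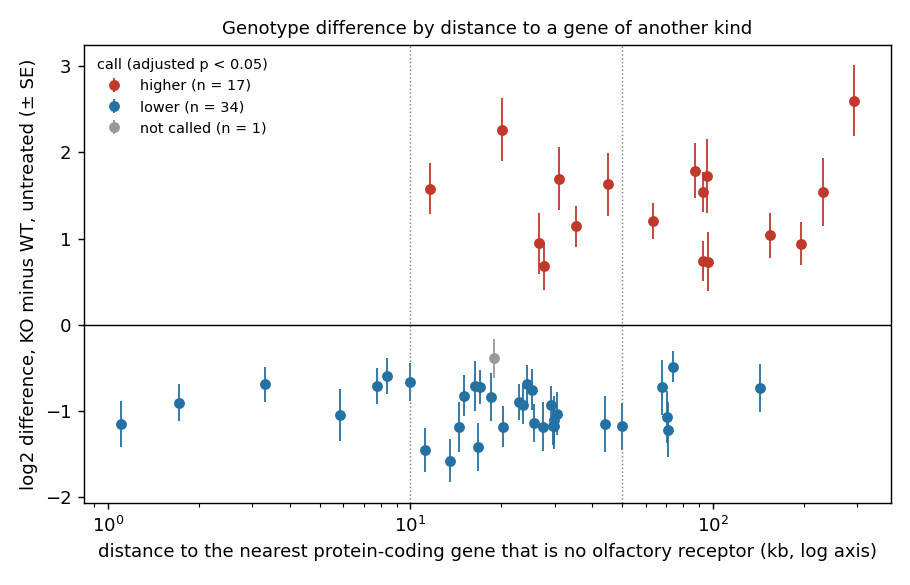
Log2 difference in signal, KO minus WT, untreated (vertical axis, ± SE), against the distance from the site to the nearest protein-coding gene that is no olfactory receptor (horizontal axis, kb, log scale), for the 52 sites; colours give the call. Of the 15 sites beyond 50 kb, 10 were called higher, and of the 7 within 10 kb, 0 were, against 9.07% of all sites of the table. The calls below 0 at the 52 sites were lost under the 3 other scalings.

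Neighbouring sites of a receptor gene did not always move together. The Olfr225 gene had 1 site that rose (named above) and 2 that were called lower, at 88.1 ± 10.9 in KO and 168 ± 13.2 in WT (chr11:59633157-59633357) and 78.3 ± 15.6 in KO and 131 ± 6.78 in WT (chr11:59637078-59637278). The riser lies 2.89 kb from the receptor, and the other 2 lie 18.9 and 22.9 kb from it, toward Mprip. At Olfr1358 the farthest site rose, and the other 3 were called lower, at 358 ± 46.0 in KO and 598 ± 132 in WT, 163 ± 22.6 in KO and 302 ± 34.5 in WT, and 35.8 ± 2.94 in KO and 84.6 ± 24.2 in WT (SD, n = 3 each). Olfr750 likewise had a riser and a second, brighter site (chr14:51064994-51065194) with 269, 273 and 319 in KO untreated libraries, against 479, 306 and 698 in WT untreated libraries, a difference of -0.71 ± 0.21. These were the 3 genes with calls in both directions. Relative to the median of all sites, the falls at Olfr225 stood at -0.10 and 0.08, those at Olfr1358 at 0.11, -0.06 and -0.34, and that at Olfr750 at 0.13. Under the 3 other scalings the falls at chr10:78481922-78482122 and chr14:51064994-51065194 turned above 0, with no call.

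At the other genes with 3 sites, calls were in a single direction. The 3 sites in the body of Olfr1393 were called lower, at 119.8 ± 29.3 in KO and 220.4 ± 15.8 in WT, 289 ± 23.5 in KO and 466 ± 38.8 in WT, and 189 ± 28.9 in KO and 284 ± 31.4 in WT, with differences of -0.90, -0.69 and -0.59. The Olfr530 sites were also called lower. The brightest member of all, 0.811 kb from Olfr530, had 630.1, 608 and 722 in KO untreated libraries, against 1068, 930.3 and 762 in WT untreated libraries, a difference of -0.48 ± 0.18 (adjusted p 0.00985) that stood 0.35 above the median of all sites. The other 2 Olfr530 sites had 27.4 ± 8.37 in KO and 49.9 ± 25.1 in WT (chr7:140368901-140369101) and 30.5 ± 5.86 in KO and 66.8 ± 21.4 in WT (chr7:140371169-140371369). The 2 further Olfr221 sites had 64.4 ± 8.45 in KO and 159 ± 68.7 in WT, and 127 ± 8.89 in KO and 206 ± 26.6 in WT (SD, n = 3 each). Of these falls, those at chr11:49266317-49266517 and chr11:49271377-49271644 in Olfr1393, at chr14:52045378-52045578 beside Olfr221 and at chr7:140374419-140374619 beside Olfr530 turned above 0 under all 3 other scalings, with no call.

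On the deposited scale, calls of both directions were made in and near the receptor genes. Of the 5 sites in a gene body 1 rose (Olfr46) and 4 were called lower, of the 6 within 1 kb of a gene end 2 rose (Olfr175 and Olfr1385) and 4 were called lower, and of the 41 farther out 14 rose and 26 were called lower. The 4 near a gene end that were called lower were at Olfr221, Olfr530, Olfr45 and Olfr525, the last with 79.5, 90.6 and 111 in KO untreated libraries, against 201, 153 and 181 in WT untreated libraries (chr7:140324257-140324457, a difference of -0.93 ± 0.23). Inside the span of a receptor cluster 14 of 37 sites rose, and outside it 3 of 15. Of all 39657 sites, 9.07% were called higher and 89.6% lower, and under the 3 other scalings none of the members called lower here was called.

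Calls in untreated cells were also counted in other regions with few genes. Of the 10 sites nearest a vomeronasal receptor gene, 2 were called higher and 7 lower in KO, with a median log2 difference of -0.72. Of the 3213 sites with no protein-coding gene within 50 kb, 713 (22.2%) were called higher and 2458 lower, with a median of -0.82. Under median-of-ratios, equal total signal and cyclic loess scaling 733, 727 and 727 of the gene-desert sites were called higher and 151, 205 and 115 lower, and the vomeronasal calls were 3, 3 and 2 higher and 0 lower. The share of called-higher sites was thus 32.7% beside olfactory receptor genes, 22.2% in gene deserts and 26.5% in the faintest of the 5 level classes; these sets were not compared by a test. Pax5 was the only one of these 3 B cell marker genes with sites, and 3 of its 4 sites were called higher in KO untreated cells. Their summed signal was 188 to 265 in KO untreated libraries, against 67.4 to 99.5 in WT untreated libraries. Ebf1, of the EBF factors that act in B cells too, had calls in both directions on the deposited scale, most of them lower. Its log2 differences ran from -1.79 to 1.48. Under the 3 other scalings all its sites called lower lost their calls, and the site at 1.48 kept its call. The B cell markers Ms4a1 and Cd79a had no site, and the part of such cells in the result was not tested.

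**Figure D4:**
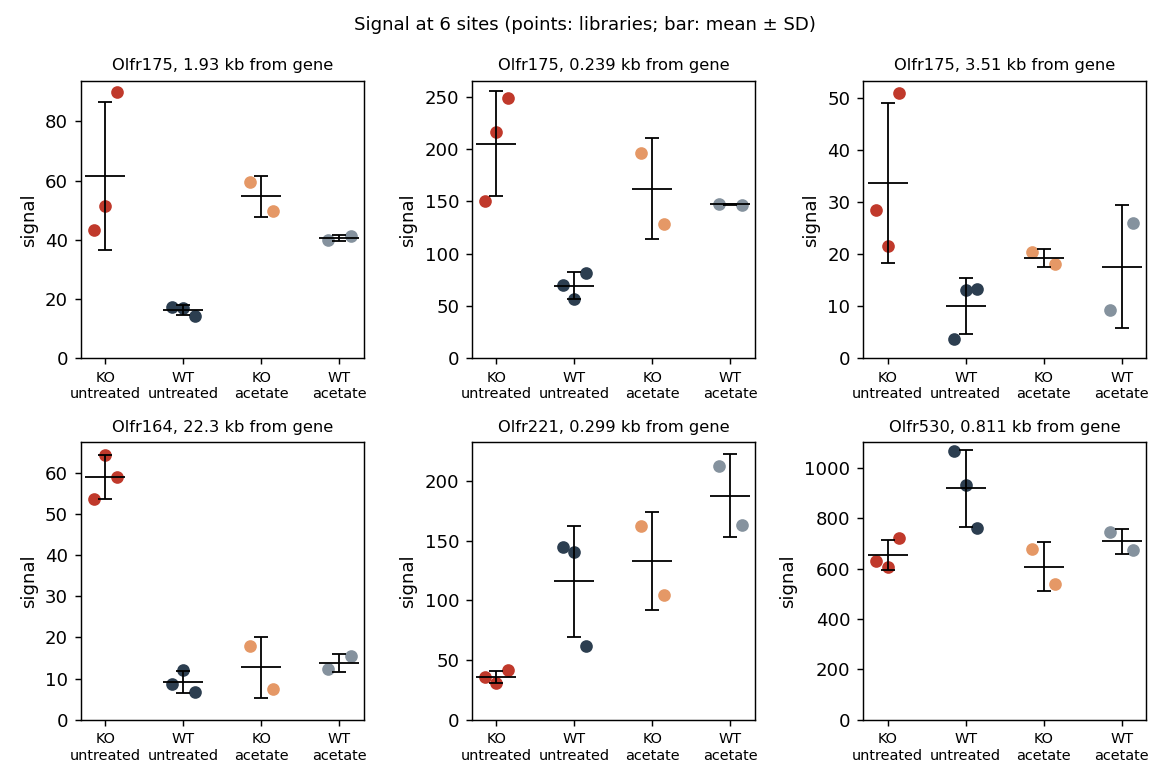
Signal (vertical axis, from 0) at 6 olfactory receptor sites by group; points are libraries and bars give the mean ± SD. The 3 Olfr175 sites and the Olfr164 site are higher in KO than in WT untreated libraries, while the sites near Olfr221 and Olfr530 are lower on this scale; under the 3 other scalings neither of the last 2 was called, and Olfr530 turned above 0.

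In the presence of acetate, no receptor site was called different between the genotypes. With limma, 0 of the 52 sites were called higher and 0 lower in KO acetate than in WT acetate libraries, against 0.0227% and 0% of all sites, and 2 of the 52 had an unadjusted p under 0.05, against 914 of all 39657. The median log2 difference was -0.17 over the members and -0.15 over all sites. All 4 acetate libraries carry the prefix ATAC2, so the comparison lies within it, with 2 libraries a group. The sites that rose in KO untreated cells ran from -0.42 at Olfr1414 to 0.78 at Olfr155 with acetate. Their median was 0.15, and 13 of 17 stood above 0. The 34 sites called lower had a median of -0.24, with 32 below 0. Of all sites of the table, 3046 of 7932 in the faintest of the 5 level classes stood above 0 and 4886 below. In the brightest class 431 of 7932 stood above 0 and 7501 below. The 2 genotype comparisons share no library. Site values ranged from -0.83 at Olfr45 (15.3 and 27.2 in KO acetate libraries and 36.9 and 37.2 in WT acetate libraries) to 0.78 at Olfr155 (21.3 and 28.7 in KO acetate libraries and 9.23 and 21.1 in WT acetate libraries). The Olfr175 site at the promoter had 196 and 128 in KO acetate and 148 and 147 in WT acetate libraries, a difference of 0.11 ± 0.28 (adjusted p 0.993), and the site near Olfr221 had 162 and 104 in KO acetate and 212 and 163 in WT acetate libraries, a difference of -0.51 ± 0.31 (adjusted p 0.993). A p that misses the threshold does not show that the genotypes were alike here.

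**Figure D5:**
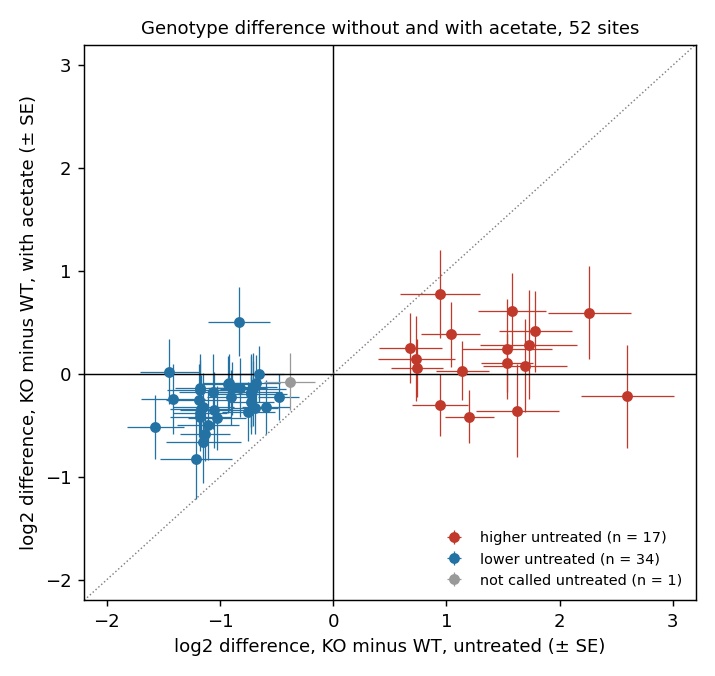
Log2 difference in signal, KO minus WT, with acetate (vertical axis, ± SE) against the same difference in untreated cells (horizontal axis, ± SE), for the 52 sites. Untreated differences run from -1.57 to 2.60 and acetate differences from -0.83 to 0.78, with no site called in the acetate comparison; the sites below 0 in untreated cells lost their calls under the 3 other scalings.

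The values of KO cells with and without acetate are given next, with the limit that all KO acetate libraries carry the prefix ATAC2 and all KO untreated libraries ATAC1, so that acetate and prefix cannot be told apart, and that the KO untreated libraries are those of the first comparison. In KO cells, 20 of the 52 sites were called higher with acetate and 12 lower, against 54.6% and 5.94% of all sites, with a median difference of 0.25 over the members and 0.61 over all sites. These shares of all sites hold for the deposited scale. Those under the other scalings are not given here, so the counts that follow cannot be set against the whole table. The other scalings gave 4 higher and 19 lower (median-of-ratios), 5 and 18 (equal total signal) and 3 and 21 (cyclic loess), and without KO acetate 1 the calls were 12 higher and 10 lower. The largest fall was inside Olfr46, which had 29.0 and 49.8 in KO acetate libraries, against 184, 184 and 228 in KO untreated libraries, a log2 difference (acetate minus untreated) of -2.35 ± 0.29 (adjusted p 2.57e-11). Falls of over 1 log2 unit were also called at Olfr164 (-2.24), Olfr424 (-2.07), Olfr1420 (-2.04), Olfr225 (-1.58), Olfr1358 (-1.36), Olfr155 (-1.33 and -1.03), Olfr706 (-1.14) and Olfr535 (-1.11), and Olfr1414 (-0.97) and Olfr750 (-0.88) were called with smaller ones. The Olfr175 site at the promoter was not called, at 196 and 128 in KO acetate libraries and 151, 217 and 248 in KO untreated libraries. On the other side, Olfr1513 (chr14:52343163-52343363) had 109 and 89.0 in KO acetate libraries, against 17.0, 15.9 and 27.2 in KO untreated libraries, a difference of 2.28 ± 0.32 (adjusted p 2.02e-09). Olfr221 (chr14:52034675-52034875) had 162 and 104 in KO acetate libraries, against 35.6, 30.8 and 41.4 in KO untreated libraries, a difference of 1.83 ± 0.28 (adjusted p 5.39e-08). Olfr10 (1.46), Olfr520 (1.42), Olfr372 (1.34), Olfr374 (1.32), Olfr279 (1.24), Olfr530 (1.06), Olfr1371 (0.98), Olfr1358 (up to 0.92), Olfr1393 (0.84), Olfr225 (0.81), Olfr1368 (0.80), Olfr750 (0.73) and Olfr525 (0.73) were called higher too on the deposited scale.

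In WT cells acetate was followed by few calls. With limma, 3 of the 52 sites were called higher and 2 lower in WT acetate than in WT untreated libraries, against 2.91% and 3.02% of all sites, with a median difference of 0.05 over the members and -0.03 over all sites. Olfr175 supplied 2 of the 3. At the promoter the signal was 148 and 147 in WT acetate libraries, against 69.9, 56.3 and 81.8 in WT untreated libraries, a log2 difference of 1.09 ± 0.26 (adjusted p 0.00252), and at chr16:58821647-58821847 it was 40.0 and 41.4 in WT acetate libraries, against 17.5, 17.1 and 14.4 in WT untreated libraries, a difference of 1.27 ± 0.36. Olfr1513 (chr14:52343163-52343363) had 126 and 110.2 in WT acetate libraries, against 45.0, 38.2 and 55.3 in WT untreated libraries, a difference of 1.35 ± 0.32 (adjusted p 0.00326). The site inside Olfr46 had 18.5 and 44.9 in WT acetate libraries, against 107, 98.5 and 82.9 in WT untreated libraries, a difference of -1.69 ± 0.29 (adjusted p 2.89e-05), and Olfr525 (chr7:140317474-140317674) had 46.2 and 62.5 in WT acetate libraries, against 164, 129.6 and 68.5 in WT untreated libraries, a difference of -1.06 ± 0.31 (adjusted p 0.0221). Without WT acetate 1 there were 0 calls in either direction, and without WT untreated 4 there were 4 higher and 6 lower. WT untreated 4 is the only untreated library with the prefix ATAC2, and among ATAC2 libraries alone 6 sites were called higher and 3 lower. In that fit WT untreated is this 1 library, which was assumed to vary like the acetate groups.

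The interaction term asked whether the genotype difference itself changed with acetate, as the difference KO minus WT with acetate minus that without it. It was called positive at 5 of the 52 sites and negative at 9, against 19.5% and 3.61% of all sites, with a median of 0.54 over the members and 0.67 over all sites. Under the other scalings 0 were positive and 10, 10 and 12 negative, where the shares over all sites are not given here. The largest negative value was -2.82 ± 0.65 at Olfr164 (adjusted p 0.00403), where the genotypes overlapped with acetate (means 12.7 ± 7.33 in KO and 13.9 ± 2.22 in WT, SD, n = 2 each) and differed without it (means 59.1 ± 5.35 in KO and 9.14 ± 2.73 in WT, n = 3 each). At Olfr1414 it was -1.62 ± 0.34 (adjusted p 0.00149), with 195 ± 21.4 in KO acetate and 259 ± 0.927 in WT acetate libraries, and at the Olfr175 promoter site it was -1.43 ± 0.36 (adjusted p 0.00842). The largest positive value was 1.47 ± 0.41 at Olfr279 (adjusted p 0.0147). The counts rest on single libraries, since the positive calls were 0 without KO untreated 1, WT acetate 1 or KO acetate 1, 1 without KO untreated 2, WT untreated 1 or WT acetate 2, 9 without KO untreated 3 and 10 without WT untreated 4, and the negative calls were 3 without either KO acetate library, 4 without KO untreated 1 or WT acetate 2, and 5 without WT untreated 1. Prefix and interaction cannot be told apart, since no KO acetate library carries ATAC1 and no KO untreated library ATAC2.

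Genes that serve the receptors in olfactory neurons had calls of both directions. Of 28 such genes 15 had a site, 61 sites in all, and in untreated cells 7 of these were called higher and 53 lower in KO, with a median log2 difference of -0.89. These are 11.5% and 86.9% of the list's sites, close to the 9.07% and 89.6% of all sites. Under median-of-ratios, equal total signal and cyclic loess scaling 7 were called higher each time, and 3, 4 and 3 lower. With acetate the genotypes were called different at 0 of the 61. In KO cells 28 were called higher and 5 lower with acetate (45.9% and 8.20%, against 54.6% and 5.94% of all sites). In WT cells 1 was called higher and 3 lower (1.64% and 4.92%, against 2.91% and 3.02% of all sites). The interaction was called positive at 13 and negative at 5 (21.3% and 8.20%, against 19.5% and 3.61% of all sites). At signal transduction genes the untreated calls were 2 higher and 17 lower, with both rises at Ano2, the calcium-gated chloride channel of olfactory cilia. Of the sites at receptor trafficking genes, 1 was called higher and 5 lower, and the lowest adjusted p was at Reep1, which helps receptors to reach the membrane in cell culture (chr6:71799484-71799684), with 33.0 ± 10.5 in KO untreated and 112 ± 20.7 in WT untreated libraries, a difference of -1.76 ± 0.26 (adjusted p 1.04e-08) that stayed called under the 3 other scalings. Of the sites at receptor choice genes, 4 were called higher and 31 lower. Bptf, a chromatin remodelling subunit, had 36.5 ± 7.46 in KO and 117 ± 12.3 in WT (chr11:107105353-107105553, a difference of -1.66 ± 0.25, adjusted p 1.81e-08), which also stayed called. Lbr, the lamin B receptor of the nuclear envelope, had 341 ± 46.5 in KO and 738 ± 144 in WT (chr1:181860787-181861180, a difference of -1.10 ± 0.20, adjusted p 1.16e-06); this site lost its call under each of the 3. Lhx2, a transcription factor that binds receptor enhancers, had 126 ± 28.3 in KO and 40.5 ± 6.92 in WT at a site outside the gene (chr2:38410282-38410482, a difference of 1.60 ± 0.26, adjusted p 1.57e-07, SD, n = 3 each).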

How the data were processed

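Signal was deposited by the authors as 1 table of 39657 sites and 10 libraries. It was read as reads per site divided by 1 factor per library, since 100% of values were whole multiples of a step per library within 0.001 reads. The sources used here do not say how the factors were made. Per the submitters' processing notes the build was GRCm38 and the reads were handled with deepTools 3.5.1, DiffBind 3.6.1, BWA 0.7.16a, FastQC 0.11.5, Picard 2.10.9, DESeq, DESeq2 and Genrich, in roles that the notes do not state. Columns WT 4 and KO acetate 3 carry numbers that no title lists and were placed by group.

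Gene bodies and promoters came from RefSeq tables of GRCm38.p6, and for distances the nearest protein-coding gene body within 50 kb counted. Log2(signal + 1) was fitted with limma 3.58.1 (trend, robust; R 4.3.3) with 4 group means over all 10 libraries. The Benjamini-Hochberg adjustment ran over the 39657 sites together, with calls below 0.05. Tables and figures were made with Python 3.11.15, pandas 2.3.3, numpy 2.4.6 and matplotlib 3.10.9, and the fit was tested on simulated data. Behind ± stands the SD of a signal or the SE of a log2 difference.

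Alternatives were median-of-ratios factors, equal total signal, cyclic loess, a pseudocount of 8, a mean signal of at least 20, a replicate block, libraries of 1 prefix, a 10 kb window, sites with no gene other than a receptor within 50 kb, leaving out each library, and the share of nuclear reads. The members and lists were chosen with earlier results of these data known. Some marker genes are not reported here, and the marker counts leave them out. Sites were named by rule: per comparison up to 10 called in each direction by adjusted p (1 per gene), the 5 highest and 5 lowest by level, genes with 3 or more sites, up to 10 sites in or within 1 kb of a gene, and up to 4 genes of the olfactory signalling list. Values of further members complete the account of the set and were added after they were seen. Within each group the number of reads at a site limits precision, and the inferred depth was 3500172 to 13356560 reads in sites per library.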

Additional observations from a re-analysis of the deposited data

Results flagged for a closer look

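At 13 named sites limma called the interaction, the test of whether the difference between KO and WT was the same with and without acetate, at an adjusted p under 0.05. The value given for each is the log2 difference with acetate minus that without it, ± SE. Of all sites 19.5% were called positive and 3.61% negative. At 8 of the named sites the value was negative. Olfr1414 (chr1:92537047-92537247) had -1.62 ± 0.34 (adjusted p 0.00149), where KO minus WT was -0.42 with acetate and 1.20 without it. Olfr164 (chr16:19263276-19263476) had -2.82 ± 0.65 (adjusted p 0.00403), where KO minus WT was -0.22 with acetate and 2.60 without it. Olfr175 (chr16:58827000-58827200) had -1.43 ± 0.36 (adjusted p 0.00842), where KO minus WT was 0.11 with acetate and 1.54 without it. Olfr225 (chr11:59617113-59617313) had -1.99 ± 0.59 (adjusted p 0.019), where KO minus WT was -0.36 with acetate and 1.63 without it. Olfr535 (chr7:140496979-140497179) had -1.24 ± 0.39 (adjusted p 0.0245), where KO minus WT was -0.30 with acetate and 0.94 without it. Olfr1358 (chr10:78538887-78539087) had -1.11 ± 0.37 (adjusted p 0.0302), where KO minus WT was 0.03 with acetate and 1.14 without it. Olfr1420 (chr19:11892146-11892346) had -1.67 ± 0.58 (adjusted p 0.0343), where KO minus WT was 0.60 with acetate and 2.26 without it. Olfr424 (chr1:174141542-174141742) had -1.62 ± 0.58 (adjusted p 0.039), where KO minus WT was 0.08 with acetate and 1.70 without it.

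At the other 5 sites the value was positive, and under median-of-ratios, equal total signal and cyclic loess scaling no positive call remained. Olfr279 (chr15:98506312-98506512) had 1.47 ± 0.41 (adjusted p 0.0147), where KO minus WT was 0.02 with acetate and -1.45 without it. Olfr1368 (chr13:21160739-21160939) had 1.34 ± 0.44 (adjusted p 0.0276), where KO minus WT was 0.51 with acetate and -0.83 without it. Olfr520 (chr7:99741022-99741222) had 1.03 ± 0.35 (adjusted p 0.0316), where KO minus WT was -0.14 with acetate and -1.17 without it. Olfr525 (chr7:140317474-140317674) had 1.17 ± 0.44 (adjusted p 0.0444), where KO minus WT was -0.24 with acetate and -1.42 without it. Olfr221 (chr14:52034675-52034875) had 1.06 ± 0.40 (adjusted p 0.0461), where KO minus WT was -0.51 with acetate and -1.57 without it. Acetate and library prefix cannot be told apart in this term. No group had 4 or more libraries, so an outlying library could not be singled out within its group. Each library was left out in turn instead, and the interaction calls depended on single libraries. With all libraries 5 member sites were called positive and 9 negative. Without KO untreated 1 the calls were 0 positive and 4 negative, and without WT untreated 4 they were 10 positive and 11 negative.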

How the results depend on the processing

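The 17 sites higher in KO untreated cells kept their calls under median-of-ratios, equal total signal and cyclic loess scaling and with a pseudocount of 8, while the 34 lower calls became 0 under each of these 3 scalings. In KO cells, acetate calls were 4, 5 and 3 higher (against 20) and, in the first and the last, 19 and 21 lower (against 12). In WT cells lower calls with acetate were 4 under cyclic loess, and among ATAC2 libraries, with 1 WT untreated library, 6 were higher. Positive interaction calls were 0 under all 3 scalings. The cause was not tested. For fits other than the main one, shares over all sites are given only for the untreated comparison under the 3 scalings. The other counts of members in such fits thus cannot be set against the whole table. With no gene other than a receptor within 50 kb, where 15 sites remain, untreated calls were 10 higher and 5 lower, acetate calls in KO 1 higher and 5 lower, in WT 1 lower, and interaction calls 0 positive and 5 negative. Of the ratios of level, KO over WT, shares of reads gave 1.27 untreated and 0.975 with acetate, against 0.770 and 0.872 on signal. Leaving out each library gave untreated calls of 15 to 17 higher and 30 to 35 lower, KO against WT with acetate 0 to 0, acetate in KO 12 to 22 higher and 9 to 13 lower, acetate in WT 0 to 4 higher and 0 to 6 lower, and interaction 0 to 10 positive and 3 to 11 negative; a lone library left in a group was assumed to vary like the others. Of 72 named values, 34 lost their call under median-of-ratios, 33 under equal total signal and 34 under cyclic loess scaling, and of these 8, 6 and 8 also changed sign. In the fits that left out a library 75 of 720 lost it, and most of these were values of the interaction.

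Some untreated falls turned above 0. Under median-of-ratios, equal total signal and cyclic loess the log2 differences were 0.113, 0.0436 and 0.0891 at Olfr1393 (chr11:49266317-49266517), 0.209, 0.140 and 0.241 at Olfr1393 (chr11:49271377-49271644), 0.0932, 0.0237 and 0.0532 at Olfr750 (chr14:51064994-51065194), 0.0774, 0.00775 and 0.00500 at Olfr1358 (chr10:78481922-78482122), 0.320, 0.250 and 0.189 at Olfr530 (chr7:140374419-140374619) and 0.114, 0.0445 and 0.163 at Olfr221 (chr14:52045378-52045578). Under median-of-ratios and cyclic loess they were 0.0453 and 0.138 at Olfr225 (chr11:59637078-59637278) and 0.0540 and 0.173 at Olfr530 (chr7:140368901-140369101).

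With the replicate number of the titles as a replicate block, in the 8 libraries whose column matches a title, untreated calls were 16 higher and 35 lower, KO against WT with acetate 0, acetate in KO 21 higher and 10 lower, acetate in WT 4 higher and 8 lower, and interaction 20 positive and 7 negative. The KO acetate group has 1 library there, which was assumed to vary like the other groups. The differences of replicate 1 minus replicate 2 correlated across sites at 0.187 (KO and WT untreated), 0.0274 (KO untreated and WT acetate) and 0.319 (WT untreated and WT acetate). These values do not settle whether same-numbered libraries were paired, and the main fit used no pairing. The planned count test was not run, because the reads behind the values were not accepted as recovered for every library. At 3 reads in some libraries, the faintest sites show only large differences, and a site outside the table could not be seen.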
